A study of Mus musculus with 16 samples.

Results

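The genes described here are 45 regulators of silent chromatin: the subunits of the Polycomb complexes PRC1 and PRC2, the demethylases that oppose PRC2, the HP1 proteins and H3K9 methyltransferases of heterochromatin, the enzymes that write and remove DNA methylation, and the partners *Kmt2a*, *Hdac1* and *Hdac2*. They were found by their symbols among the 30386 genes of the expression table, and all 45 passed the filter on low values that left 12533 genes for testing. The samples were 16 RNA preparations from neural stem/progenitor cell (NSPC) lines of the subventricular zone (SVZ) of C57BL/6 J/Babr mice of 3 months of age, 8 with a constitutive *Dbx2* transgene (*Dbx2*-NSPCs) and 8 with a *GFP* transgene as the control (*GFP*-NSPCs). Per the study's methods, both kinds of line had received a pTP6 plasmid by nucleofection, were kept under puromycin and were grown in bulk in non-adherent culture. The RNA came from 2 independent pairs of lines, each sampled in 4 separate experiments. The labels number the samples 1 to 8 in each group but do not say which line a sample came from, so whether the samples numbered 1 to 4 and 5 to 8, which stood apart in many genes, are the pairs of lines is not known here.

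Polycomb complexes keep developmental genes silent: PRC2 methylates histone H3 at K27, and PRC1 reads that mark through its Cbx subunits and ubiquitinates histone H2A. Heterochromatin is marked by methylation of H3K9, which HP1 proteins bind, and cytosine methylation, written by Dnmt enzymes and oxidised by Tet enzymes, adds another layer. In NSPCs of the adult SVZ these systems are known for holding lineage and positional genes silent and for supporting self-renewal, *Bmi1* and *Ezh2* among the best studied.

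Each library was made by QuantSeq, which reads the end of each transcript next to its poly-A tail, and the values are CPM, a gene's reads as a share of its library's reads in parts per 1e6. The samples held 1803928 to 3293285 reads, so that the floor of 3 reads, which covers counting error only, stood for 0.911 to 1.66 CPM. *Dbx2* itself was at 30.7 to 171 CPM (median 64.4) in *GFP*-NSPCs and 114 to 232 CPM (median 147) in *Dbx2*-NSPCs, higher in 8 of 8 same-numbered comparisons (log2 fold change 1.26, standard error (SE) 0.317, adjusted p by limma = 0.00978). The change differed between sets of samples. The log2 fold change of *Dbx2* was 0.54 in those numbered 1 to 4 alone (adjusted p by limma = 0.0891). It was 1.99 in those numbered 5 to 8 (adjusted p by limma = 5.67e-08), a difference of 1.45 (adjusted p = 1.04e-04). The sets stood apart mainly among the controls. Going from numbers 1 to 4 to numbers 5 to 8, the mean log2 level shifted by -1.77 among controls. With the *Dbx2* transgene it shifted by only -0.33, so these samples were not higher on average in the set numbered 5 to 8. Of 8 NSPC markers, 7 passed the filter, and their summed level was 5505 to 7082 CPM in *GFP*-NSPCs and 4284 to 5909 CPM in *Dbx2*-NSPCs, with *Fabp7*, *Egfr* and *Slc1a3* called lower, while *Prom1* did not exceed 0.65 CPM in any sample.

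Of the chromatin regulators, 8 passed the test between the groups, and each was lower in *Dbx2*-NSPCs: the DNA demethylases *Tet1*, *Tet2* and *Tet3*, the PRC2 genes *Jarid2* and *Suz12*, the PRC1 gene *Bmi1*, the HP1 gene *Cbx1* and the deacetylase gene *Hdac2*. The count was 8 of 45, or 17.8%, against 15.8% of all genes tested (limma on log2(CPM + 0.5) without a covariate, Benjamini-Hochberg adjusted p under 0.05 over all 12533 genes). The direction was one-sided, with 8 lower and 0 higher, where 7.78% of all genes were called lower and 8.03% higher. At an unadjusted p under 0.05 there were 16 of the 45 (35.6%), against 29.2% of all genes. Of the 45 log2 fold changes, 33 (73.3%) were below 0, against 52.7% of all genes tested, and their median was -0.22, against -0.02 over all genes. These are bulk measurements, in which fewer cells of a type and less RNA per cell cannot be told apart. In a fit blocked on the replicate number, the count rose to 15, 14 lower and 1 higher, against 21.7% of all genes called (10.9% lower, 10.8% higher). Whether the numbers pair the samples is not known. The genes gained in this fit were *Ezh2*, *Rnf2*, *Kdm6b*, *Suv39h1*, *Ehmt1* and *Uhrf1*, all lower, and *Kmt2a*, higher.

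**Figure D1:**
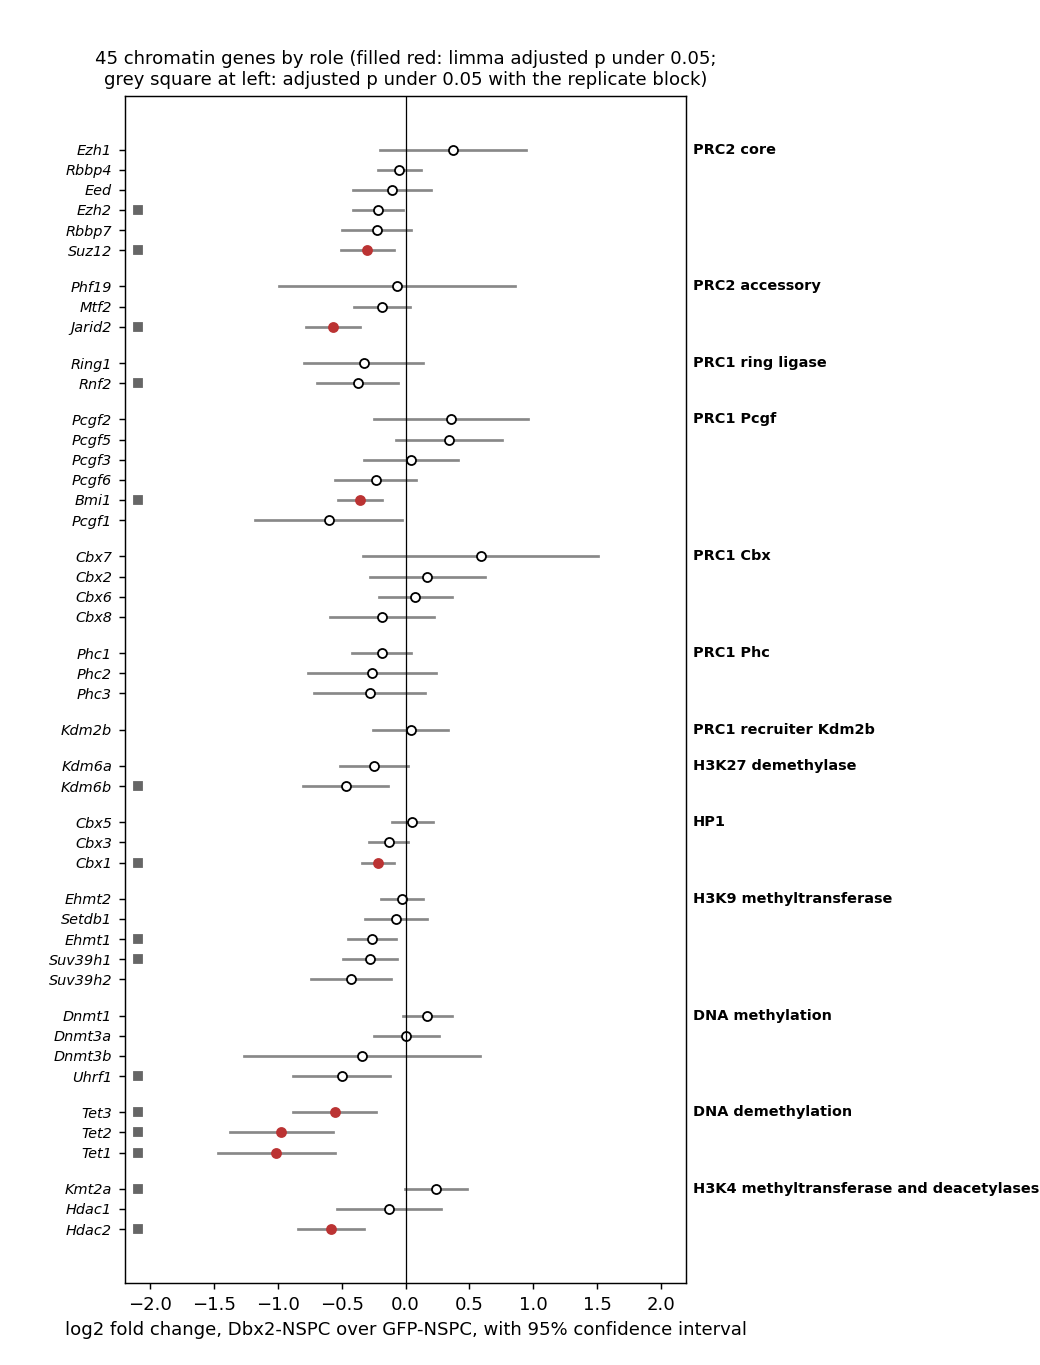
Log2 fold change of each of the 45 chromatin genes between *Dbx2*-NSPCs and *GFP*-NSPCs (x axis, log2 of CPM + 0.5, n = 8 each) with its 95% confidence interval, grouped by role. The 8 filled points passed the test and all lie left of 0, and the grey squares mark the 15 genes that passed it in the fit blocked on the replicate number.

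The *Tet* family, the enzymes that oxidise methylated cytosine as the opening step of DNA demethylation, was lower in all 3 of 3 members, and *Tet1* and *Tet2* had the largest differences among the called genes. *Tet1* (ENSMUSG00000047146, chromosome 10, 62804570 to 62908996, GRCm38) was at 35.1 to 83.1 CPM (median 54.2) in *GFP*-NSPCs and 14.3 to 40.6 CPM (median 30.9) in *Dbx2*-NSPCs. The groups overlapped, and each *Dbx2*-NSPC sample was below the *GFP*-NSPC sample of the same number. The log2 fold change of *Tet1* was -1.01 (SE 0.219, adjusted p by limma = 0.00341), a mean level 49.5% of that of *GFP*-NSPCs. *Tet1* lies on chromosome 10, whose tested genes were lower as a whole, with a median log2 fold change of -0.37.

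*Tet2* (ENSMUSG00000040943, chromosome 3, 133463679 to 133545139) was at 18.9 to 28.6 CPM (median 24.7) in *GFP*-NSPCs and 7.59 to 20.8 CPM (median 12.4) in *Dbx2*-NSPCs. Only the highest *Dbx2*-NSPC sample, replicate 7, lay within the *GFP*-NSPC range, and the level was lower in 8 of 8 same-numbered comparisons. Fitted over all samples, its log2 change was -0.97 (SE 0.193, adjusted p by limma = 0.00170), with -1.29 in the samples numbered 1 to 4 and -0.66 in those numbered 5 to 8. In the latter set the limma adjusted p was 0.0647, and the difference between the sets did not pass the test (adjusted p by limma = 0.284). *Tet3* (ENSMUSG00000034832, chromosome 6, 83362373 to 83459084) was at 48.7 to 88.1 CPM (median 62.4) in *GFP*-NSPCs and 31.8 to 61.9 CPM (median 41.4) in *Dbx2*-NSPCs, with overlap and again lower in 8 of 8 numbers. Its log2 fold change was the smallest of the family, at -0.55 (SE 0.155, adjusted p by limma = 0.0194). *Tet1* and *Tet3* passed the test in all 17 alternatives run and *Tet2* in 16 of 17.

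The 3 *Tet* genes lie on different chromosomes, and the stretches next to their transcription starts are shown because the genes fell together. In RefSeq (GRCm38.p6) the 75 bases directly before the annotated start, which hold no exon of GENCODE M21, lie at chr10:62887325-62887399, chr3:133544391-133544465 and chr6:83441679-83441753 for *Tet1*, *Tet2* and *Tet3*, all on the minus strand and all inside the longer gene spans given above. Capitals mark a CCAAT motif, here on the opposite strand.
Tet1: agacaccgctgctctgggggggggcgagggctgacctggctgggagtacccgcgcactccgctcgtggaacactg
Tet2: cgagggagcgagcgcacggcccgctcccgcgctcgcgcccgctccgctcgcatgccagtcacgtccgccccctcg
Tet3: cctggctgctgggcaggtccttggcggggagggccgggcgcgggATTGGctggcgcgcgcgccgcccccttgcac
All 3 stretches were rich in G and C: over the 250 bases before the start, GC was 62.8%, 83.6% and 69.6% and CpG dinucleotides numbered 15, 51 and 17 in this order, where the medians over 32851 windows of that length in the mouse table were 52.4% and 6. RefSeq gave such windows for 41 of the 45 genes, 59 windows in all, and these were searched on both strands for 4 motifs that do not overlap in their letters. CCAAT was in 21 windows (35.6%, against 33.8% of all windows), an E2F motif (TTTCCCG or TTTGGCG) in 4 (6.78% against 3.92%), the E-box CACGTG in 12 (20.3% against 6.02%) and the homeobox motif TAATTA in 1 (1.69% against 4.84%). Of the called genes, *Jarid2*, *Suz12* and *Tet3* held CCAAT, *Suz12* an E2F motif and *Bmi1* the E-box. The E-box holds a CpG and TAATTA only A and T, and the shares were not matched for the base content of the windows. Windows of genes that were not called could be as rich in G and C, as for *Kmt2a* (76.8%), and the called *Cbx1* had 49.6%. A match of letters is a description and not a site.

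**Figure D2:**
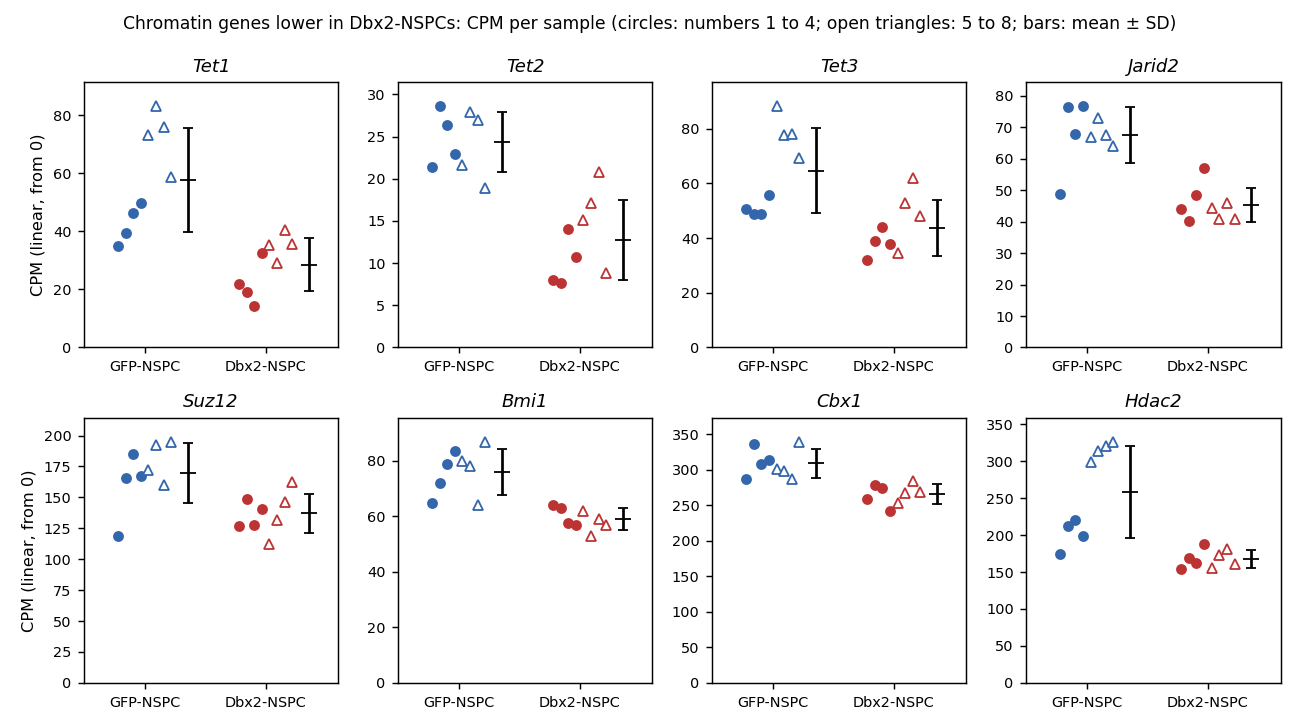
CPM of the 8 chromatin genes that passed the test, per sample (y axis, linear, from 0), with *GFP*-NSPCs in blue and *Dbx2*-NSPCs in red, circles for the samples numbered 1 to 4 and open triangles for 5 to 8, and bars for the mean ± SD (n = 8). *Cbx1* is the gene without overlap between the groups, and the *GFP*-NSPC samples of *Hdac2* and *Tet1* form separate sets by number.

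None of the 4 genes that write or maintain DNA methylation passed the test. *Dnmt1*, the maintenance methyltransferase, was at 166 to 277 CPM (median 229) in *GFP*-NSPCs and 222 to 283 CPM (median 258) in *Dbx2*-NSPCs. It was higher in 7 of 8 same-numbered comparisons, with a log2 fold change of 0.17 (SE 0.0908, adjusted p by limma = 0.223). *Dnmt3a*, a de novo methyltransferase, had 119 to 199 CPM (median 156) in *GFP*-NSPCs and 123 to 190 CPM (median 163) in *Dbx2*-NSPCs. Fitted over all samples, its log2 change was 0.01 with a 95% confidence interval from -0.25 to 0.26 (adjusted p by limma = 0.982), and the set of numbers took 72.9% of its variance. *Dnmt3b*, the other de novo enzyme, was near the floor, at 0.40 to 4.29 CPM (median 1.71) and 0 to 3.38 CPM (median 1.57), so its log2 fold change of -0.34 was not measurable with precision at this depth (SE 0.442). *Uhrf1*, which brings Dnmt1 to replicated DNA, was at 32.2 to 62.9 CPM (median 53.6) in *GFP*-NSPCs and 22.9 to 60.8 CPM (median 33.8) in *Dbx2*-NSPCs. Its log2 fold change was -0.50 (adjusted p by limma = 0.0688, and 0.0158 with the replicate block).

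In PRC2, 1 of 6 core genes and 1 of 3 accessory genes passed the test, both lower. *Jarid2* (ENSMUSG00000038518, chromosome 13, 44729474 to 44921643), an accessory subunit that guides PRC2 to its targets, was at 48.8 to 76.7 CPM (median 67.7) in *GFP*-NSPCs and 40.4 to 57.1 CPM (median 44.2) in *Dbx2*-NSPCs. Only *GFP*-NSPC replicate 1, the lowest control sample, fell into the range of *Dbx2*-NSPCs. Fitted over all samples, its log2 change was -0.57 (SE 0.102, adjusted p by limma = 6.40e-04), and the gene passed in 16 of 17 alternatives. *Suz12* (ENSMUSG00000017548, chromosome 11, 79993106 to 80034123), a scaffold without which PRC2 is not stable, was at 118 to 195 CPM (median 170) in *GFP*-NSPCs and 113 to 162 CPM (median 136) in *Dbx2*-NSPCs. The lowest control sample was again *GFP*-NSPC replicate 1, and *Suz12* was lower in 7 of 8 numbers. Its log2 fold change of -0.30 (SE 0.0991, adjusted p by limma = 0.0458) was the call closest to the threshold and passed in 9 of 17 alternatives; among others it did not pass with edgeR on whole reads (adjusted p = 0.0567) or when taken less its 50 nearest genes (adjusted p = 0.11).

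The 250 bases before the *Suz12* start, at chr11:79992856-79993105 on the plus strand of GRCm38.p6 in RefSeq, are shown because *Suz12* was the only called gene with an E2F motif there. Capitals mark the E2F motif TTTCCCG and, nearer to the start, a CCAAT motif.
Suz12: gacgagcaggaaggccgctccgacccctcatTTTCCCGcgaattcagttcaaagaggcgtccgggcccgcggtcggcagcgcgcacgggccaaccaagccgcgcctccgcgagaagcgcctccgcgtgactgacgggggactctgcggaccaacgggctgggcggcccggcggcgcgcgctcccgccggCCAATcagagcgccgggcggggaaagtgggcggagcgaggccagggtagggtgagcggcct
The GC content of this stretch was 73.6%, with 37 CpG dinucleotides.

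The catalytic subunits of PRC2 did not pass the test. *Ezh2*, the main H3K27 methyltransferase of dividing cells, was at 316 to 411 CPM (median 361) in *GFP*-NSPCs and 257 to 387 CPM (median 306) in *Dbx2*-NSPCs. It was lower in 7 of 8 numbers, with a log2 fold change of -0.22 (SE 0.0933, adjusted p by limma = 0.124) that passed with the replicate block (adjusted p = 0.0236), both alone and when each gene was taken less its 50 nearest genes. *Ezh1*, its paralog of resting cells, was at 1.64 to 9.82 CPM (median 6.07) and 5.06 to 12.5 CPM (median 7.33), a log2 fold change of 0.37 (SE 0.274, adjusted p by limma = 0.391). Within each sample the log2 level of *Ezh1* less that of *Ezh2* was 0.59 higher on average in *Dbx2*-NSPCs, in 6 of 8 numbers, and the groups overlapped. The remaining core genes, *Eed*, which binds the finished mark, and the histone chaperones *Rbbp4* and *Rbbp7*, had log2 fold changes of -0.11, -0.05 and -0.23. The accessory genes *Mtf2* and *Phf19*, which encode Tudor domain proteins, had -0.18 and -0.07. *Rbbp4*, *Rbbp7* and *Mtf2* overlap measured genes on the other strand, and the strand used in counting is not given in the sources used here.

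In PRC1, *Bmi1* was the single gene of 16 that passed the test. *Bmi1* (Pcgf4, ENSMUSG00000026739, chromosome 2, 18677018 to 18686629), a ring finger partner of the ubiquitin ligase, was at 64.2 to 86.8 CPM (median 78.4) in *GFP*-NSPCs and 52.8 to 64.2 CPM (median 58.4) in *Dbx2*-NSPCs. The groups met at 64.2 CPM, with the highest *Dbx2*-NSPC sample just above the lowest control. The log2 fold change was -0.36 (SE 0.0818, adjusted p by limma = 0.00544), lower in 8 of 8 numbers and called in 16 of 17 alternatives.

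The ligases themselves did not pass. *Rnf2* (Ring1b), the main H2A ubiquitin ligase, was at 42.4 to 73.1 CPM (median 57.3) and 34.4 to 62.8 CPM (median 42.8), lower in 8 of 8 numbers. Its log2 fold change of -0.38 had a adjusted p by limma of 0.10, and of 0.0132 with the replicate block; *Rnf2* overlaps *Trmt1l* on the other strand. *Ring1*, its paralog, was at 4.93 to 12.4 CPM (median 9.45) and 4.22 to 10.8 CPM (median 7.66), a log2 fold change of -0.33 (adjusted p by limma = 0.351). The balance of *Ring1* to *Rnf2* within samples differed by 0.05 on the log2 scale between the groups.

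The other Pcgf genes, each of which marks a variant of PRC1, did not move one way. Their log2 fold changes were -0.60 for *Pcgf1*, 0.36 for *Pcgf2*, 0.04 for *Pcgf3*, 0.34 for *Pcgf5* and -0.24 for *Pcgf6*, none of which passed, and *Pcgf1*, at 0.31 to 2.73 CPM, was close to the floor. *Bmi1* less *Pcgf2*, its closest paralog, was 0.71 lower on the log2 scale in *Dbx2*-NSPCs, in 6 of 8 numbers, with overlap. That difference was -0.22 in the samples numbered 1 to 4 and -1.20 in those numbered 5 to 8. *Pcgf2* was low, at 2.17 to 11.1 CPM, so this balance is imprecise. In the samples numbered 5 to 8 the means of *GFP*-NSPCs and *Dbx2*-NSPCs were 3.43 and 7.13 CPM for *Pcgf2* and 77.2 and 57.7 CPM for *Bmi1*. The polyhomeotic genes, whose proteins let PRC1 polymerise, had log2 fold changes of -0.19 (*Phc1*), -0.26 (*Phc2*) and -0.28 (*Phc3*). In *Dbx2*-NSPC replicate 4, *Phc2* was at 18.7 CPM and *Phc3* at 15.4 CPM, each far below the other samples of that group. In the samples numbered 5 to 8 alone the log2 fold changes of *Phc2* and *Phc3* were 0.08 and 0.09. No fit was made without *Dbx2*-NSPC replicate 4. *Kdm2b*, which brings a variant PRC1 to CpG islands, had a log2 fold change of 0.04. In the Cbx readers of PRC1 the log2 fold changes were 0.17 (*Cbx2*), 0.07 (*Cbx6*), 0.59 (*Cbx7*) and -0.19 (*Cbx8*), and none passed over all samples. *Cbx7*, at 0 to 5.14 CPM, was near the floor. *Kdm2b* and *Cbx7* overlap measured genes on the other strand.

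The H3K27 demethylases were below their control level in each same-numbered score, without a call. *Kdm6b* (Jmjd3), a demethylase with known roles in SVZ neurogenesis, was at 24.3 to 39.9 CPM (median 31.8) and 14.9 to 35.9 CPM (median 21.6), lower in 8 of 8 numbers. Its log2 fold change was -0.47 (SE 0.159, adjusted p by limma = 0.0508, and 0.0132 with the replicate block). *Kdm6a* (Utx) had a log2 fold change of -0.25 (adjusted p by limma = 0.205).

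Among the HP1 genes, *Cbx1* (HP1 beta, ENSMUSG00000018666, chromosome 11, 96789127 to 96808640) was lower. Its levels were 287 to 339 CPM (median 304) in *GFP*-NSPCs and 241 to 284 CPM (median 268) in *Dbx2*-NSPCs, so the groups did not overlap, as for 3.41% of all genes tested. Its change was small and even, a log2 fold change of -0.22 (SE 0.0605, adjusted p by limma = 0.0197), lower in 8 of 8 numbers. It was called in 15 of 17 alternatives, but in neither set of numbers alone. *Cbx3* (HP1 gamma) and *Cbx5* (HP1 alpha) had log2 fold changes of -0.13 (adjusted p by limma = 0.243) and 0.05 (adjusted p = 0.691). *Cbx3* shares its sequence with 8 named pseudogenes, and reads that match several copies make its level uncertain.

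All 5 H3K9 methyltransferases had log2 fold changes below 0 and none passed the test. *Suv39h1*, which methylates pericentric heterochromatin, was at 55.8 to 69.5 CPM (median 62.3) and 42.4 to 68.5 CPM (median 50.9), a log2 fold change of -0.28 (adjusted p by limma = 0.0698, and 0.0324 with the replicate block). *Suv39h2* had -0.43 (adjusted p = 0.0566, 0.0514 with the replicate block and 0.0403 with the set of numbers as a covariate) and *Ehmt1* (GLP), a methyltransferase of euchromatin, -0.26 (adjusted p = 0.0551, and 0.0465 with the replicate block). *Ehmt2* (G9a), the partner of Ehmt1, was at 87.2 to 106 CPM (median 101) and 81.9 to 110 CPM (median 95.4). Its log2 fold change of -0.03 had a 95% confidence interval from -0.19 to 0.13 (adjusted p by limma = 0.847). *Setdb1*, which silences retroelements, was at 19.7 to 34.9 CPM (median 26.2) and 21.8 to 29.6 CPM (median 26.1), a log2 fold change of -0.07 (adjusted p = 0.727). *Suv39h2* and *Setdb1* overlap measured genes on the other strand.

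*Hdac2* (ENSMUSG00000019777, chromosome 10, 36974544 to 37001889), a deacetylase of the NuRD, Sin3 and CoREST complexes, was the remaining called gene. It was at 175 to 326 CPM (median 260) in *GFP*-NSPCs and 154 to 188 CPM (median 165) in *Dbx2*-NSPCs, a log2 fold change of -0.58 (SE 0.123, adjusted p by limma = 0.00282). *Hdac1*, its paralog, had a log2 fold change of -0.13 (adjusted p = 0.714), which was 0.08 in the samples numbered 1 to 4 and -0.34 in those numbered 5 to 8 (adjusted p = 0.0389 in the latter). Within samples, *Hdac1* less *Hdac2* was 0.45 higher on the log2 scale in *Dbx2*-NSPCs, in 7 of 8 numbers. *Kmt2a* (Mll1), an H3K4 methyltransferase that opposes Polycomb at its targets, was at 157 to 283 CPM (median 204) and 215 to 282 CPM (median 259). It was higher in 7 of 8 numbers, with a log2 fold change of 0.24 (adjusted p by limma = 0.177, and 0.0268 with the replicate block). *Kmt2a* overlaps a measured gene on the other strand.

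*Tet1* and *Hdac2* lie on chromosome 10, where most genes were lower in *Dbx2*-NSPCs. The median log2 fold change of the 613 tested genes of chromosome 10 was -0.37, against -0.09 to 0.09 on the other 19 chromosomes, and 37% of them were called lower and 3.59% higher. Why this chromosome was lower was not tested. In every *Dbx2*-NSPC sample the median deviation of these genes from their mean over all samples was -0.22 to -0.14, and in *GFP*-NSPCs it was -0.03 to 0.34. The 50 tested genes nearest to *Tet1* had a median of -0.24 and those nearest to *Hdac2* of -0.27. In a correction chosen after the data were seen, each gene was taken less the median deviation of its 50 nearest genes in the same sample. So corrected, *Tet1* had a log2 fold change of -0.76 (adjusted p by limma = 0.0174) and *Hdac2* of -0.32 (adjusted p = 0.00638). The 50 genes nearest to the other 6 called genes had medians of -0.08 to 0.01.

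**Figure D3:**
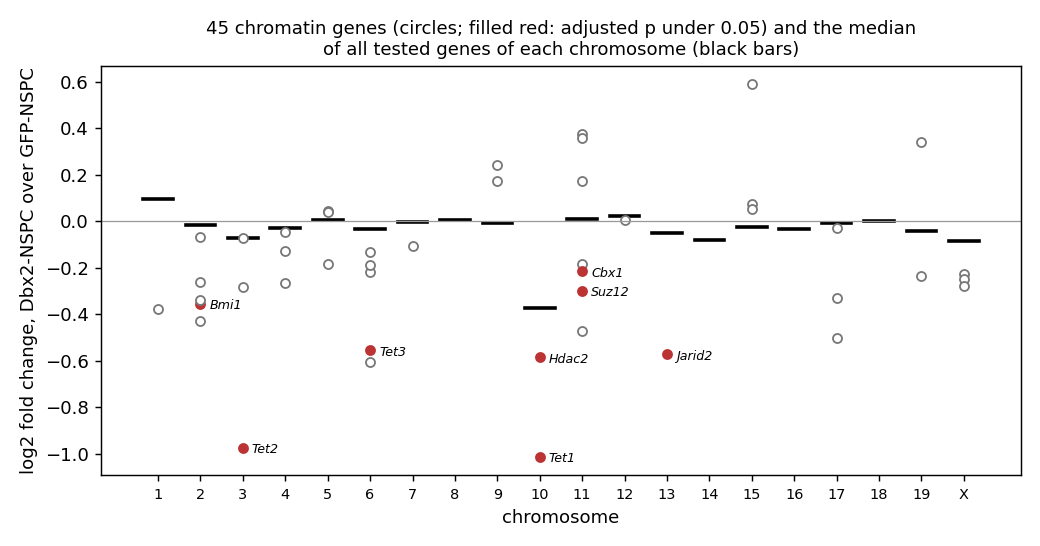
Log2 fold change of each of the 45 chromatin genes (circles, filled red where the test was passed) by chromosome, beside the median of all tested genes of that chromosome (black bars). Chromosome 10, with *Tet1* and *Hdac2*, has a median of -0.37, and the bars of the other 19 chromosomes lie between -0.09 and 0.09.

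Outside chromosome 10, 6 of 43 chromatin genes were called, all lower, against 14.5% of 11920 genes (6.28% lower, 8.26% higher), and 31 of the 43 were below 0. With every gene taken less its 50 nearest genes, 12 of the 45 were called, all lower, against 14.1% of all genes (6.42% lower, 7.73% higher). *Suz12* was lost, and *Rnf2*, *Kdm6b*, *Ehmt1*, *Cbx3* and *Cbx8* were gained. The 50 genes nearest to *Rnf2* and *Cbx3* had medians of 0.12 and 0.11, so part of their corrected change came from neighbours that were higher. For *Kdm6b* and *Ehmt1* these medians were -0.03 and -0.06. *Cbx8* and its neighbour *Cbx2* lie in a stretch of chromosome 11 where the 50 nearest genes had a median of 0.39. In the samples numbered 5 to 8 that median was 0.60, and in those numbered 1 to 4 it was 0.11.

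The samples numbered 1 to 4 and 5 to 8 differed in many of these genes within both groups. For 20 of the 45 the set of numbers took a larger share of the variance of the log2 values than the transgene, and for 9 it took over 50%, led by *Pcgf3* (75.5%), *Dnmt3a* (72.9%), *Dnmt3b* (65.3%) and *Eed* (60.7%). The transgene took over 50% for 6 genes: *Jarid2* (72.7%), *Bmi1* (67.9%), *Cbx1* (64.9%), *Tet2* (63.2%), *Hdac2* (58.1%) and *Tet1* (55.4%).

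With the set of numbers as a covariate 15 of the 45 genes were called (14 lower, 1 higher), against 24.2% of all genes (12.2% lower, 12% higher). The genes gained were *Rnf2*, *Kdm6b*, *Suv39h1*, *Suv39h2*, *Ehmt1* and *Uhrf1*, all lower, and *Kmt2a*, higher. In the samples numbered 1 to 4 alone 4 were lower and 2 higher, against 7.37% and 8.19% of all genes, and in those numbered 5 to 8 alone 9 were lower and 1 higher, against 11.7% and 11.5%. The higher genes were *Cbx6* and *Kmt2a* in the first set and *Cbx7* in the second, where *Cbx7* had a mean of 0.87 CPM in *GFP*-NSPCs, under the floor, and 3.34 CPM in *Dbx2*-NSPCs. *Hdac1*, *Phc1* and *Rnf2* were called lower in the second set and not over all samples without a covariate, and *Kdm6b* was so in the first. Of the genes called over all samples without a covariate, *Bmi1*, *Cbx1*, *Hdac2*, *Jarid2* and *Suz12* did not pass in the first set alone. In the second set alone *Cbx1* and *Tet2* did not pass. With each gene less its 50 nearest genes and the replicate block together, 15 were called, all lower, against 20% of all genes (9.42% lower, 10.6% higher).

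The difference between *Dbx2*-NSPCs and *GFP*-NSPCs itself differed between the sets of numbers for 2 of the 45 genes, *Hdac2* and *Cbx6*, against 9.44% of all genes tested (interaction term in limma, adjusted p under 0.05). *Hdac2* in the samples numbered 1 to 4 was at 175, 213, 221 and 199 CPM in *GFP*-NSPCs and 154, 168, 162 and 188 CPM in *Dbx2*-NSPCs. In those numbered 5 to 8 it was at 299, 314, 321 and 326 CPM in *GFP*-NSPCs and 156, 173, 181 and 161 CPM in *Dbx2*-NSPCs. The control samples thus formed separate levels by number, and the *Dbx2*-NSPC samples shared 1 level. The log2 fold changes were -0.26 (adjusted p by limma = 0.119) and -0.91 (adjusted p = 1.05e-06), and their difference was -0.65 (adjusted p = 0.00153). The 50 genes nearest to *Hdac2* had medians of -0.02 in the first set and -0.48 in the second, and less these genes the difference was -0.26 (adjusted p = 0.313).

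*Cbx6*, a reader of the H3K27 mark, moved in opposite directions. Among the samples numbered 1 to 4 it was at 232, 189, 208 and 248 CPM in *GFP*-NSPCs and 257, 290, 276 and 299 CPM in *Dbx2*-NSPCs. In those numbered 5 to 8 it was at 371, 369, 382 and 307 CPM in *GFP*-NSPCs and 325, 310, 267 and 331 CPM in *Dbx2*-NSPCs. The log2 fold changes were 0.36 (adjusted p by limma = 0.0346) and -0.21 (adjusted p = 0.114), and their difference was -0.57 (adjusted p = 0.00928), or -0.66 (adjusted p = 0.00527) less the nearest genes.

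**Figure D4:**
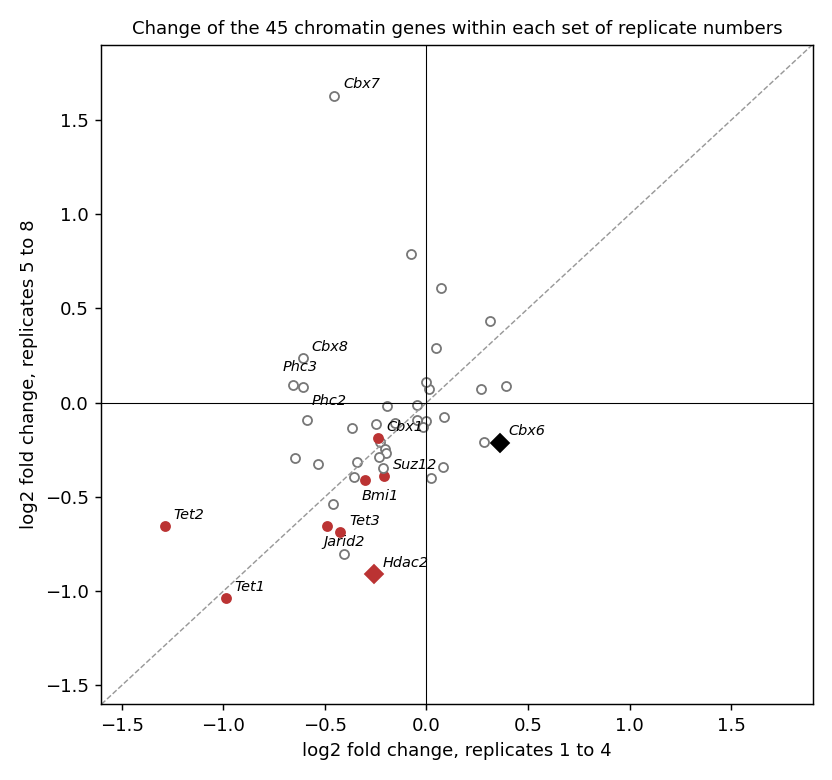
Log2 fold change of each of the 45 chromatin genes in the samples numbered 1 to 4 (x axis) and 5 to 8 (y axis), n = 4 each, with the dashed line marking equal changes. Filled red points passed the test over all samples, and the diamonds are *Hdac2* and *Cbx6*, whose changes differed between the sets; *Cbx7*, far off the line, was near the floor and its difference did not pass.

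As a summary per sample, the mean log2 level of each role was set against the mean of all tested genes. The *Tet* score averaged 1.14 ± 0.265 (SD, n = 8) for *GFP*-NSPCs against 0.276 ± 0.368 for *Dbx2*-NSPCs, lower in 8 of 8 numbers by 0.91 in the samples numbered 1 to 4 and 0.82 in those numbered 5 to 8 on average, with slight overlap of the ranges. The other scores differed by less: the means of *Dbx2*-NSPCs less those of *GFP*-NSPCs were -0.38 for the H3K27 demethylases, -0.37 for the ring ligases, -0.29 for the PRC2 accessory genes, -0.26 for the Phc genes and -0.23 for the H3K9 methyltransferases. They were -0.18 for both DNA methylation and the group of *Kmt2a* with the deacetylases (the latter 0.06 in the samples numbered 1 to 4 and -0.41 in those numbered 5 to 8), -0.12 for HP1, -0.11 for the PRC2 core and -0.09 for the Pcgf genes. The Cbx readers were at 0.14, which was -0.18 in the samples numbered 1 to 4 and 0.46 in those numbered 5 to 8. Each gene weighs equally in a score, and *Cbx7*, *Pcgf1* and *Dnmt3b* lay near the floor. The Cbx, Pcgf and DNA methylation scores are thus imprecise. In the samples numbered 5 to 8 *Cbx7* rose from a control mean of 0.87 CPM, under the floor, to 3.34 CPM. There the log2 fold changes of *Cbx6* and *Cbx8* were -0.21 and 0.24, and *Cbx7* less *Cbx2* was 1.34 higher with the *Dbx2* transgene. No score was made without the genes near the floor. Over all 45 genes the score averaged 1.23 ± 0.111 for *GFP*-NSPCs against 1.03 ± 0.109 for *Dbx2*-NSPCs, lower in 7 of 8 numbers, with overlap. No test was made of these scores, since the genes were chosen with results known.

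Genes that act beside these regulators were taken from lists of 97 genes, of which 94 were tested and 11 called, 10 lower and 1 higher. This was 11.7% of them, against 15.8% of all genes, and with the replicate block 17 were called (14 lower, 3 higher), or 18.1% against 21.7%. In the DNA methylation readers and repair genes, 4 of 13 were called. *Tdg*, the glycosylase that removes the oxidised bases made by Tet enzymes, was at 21.8 to 39.1 CPM (median 30.4) and 9.63 to 24.4 CPM (median 14.6), a log2 fold change of -0.93 (adjusted p by limma = 0.00153). *Gadd45g*, a stress gene tied to DNA demethylation, was the gene that rose, from 78.7 to 184 CPM (median 95.2) to 135 to 307 CPM (median 262), a log2 fold change of 1.11 (adjusted p = 3.58e-04). *Mbd3*, a NuRD subunit, was lower, at 145 to 193 CPM against 83.9 to 145 CPM, with a log2 fold change of -0.64 (adjusted p = 2.81e-04). Its groups did not overlap, as for 3.41% of all genes tested. *Tdg* and *Mbd3* also lie on chromosome 10: less their nearest genes the log2 fold change was -0.57 for *Tdg* (adjusted p = 0.0398) and -0.11 for *Mbd3* (adjusted p = 0.464).

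Of 25 other Polycomb genes 2 were called, led by *Auts2*, a subunit of a variant PRC1, at 52.4 to 102 CPM (median 91.5) and 34.5 to 64.2 CPM (median 45.1), a log2 fold change of -0.88 (adjusted p by limma = 3.31e-04). Of 27 heterochromatin genes 4 were called, all lower. They were *Kmt5a*, the H4K20 monomethyltransferase (log2 fold change -0.35, adjusted p = 0.0108), *Lbr*, the lamin B receptor (-0.43, adjusted p = 0.0383), *Hells*, a remodeller needed for DNA methylation (-0.33, adjusted p = 0.0393) and *Kdm4b*, an H3K9 demethylase (-0.42, adjusted p = 0.0395). Of 13 trithorax and COMPASS genes 1 was called, and 0 of 16 genes of deacetylase complexes were called by limma. With the replicate block these counts were 1 and 3.

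Of 23 S phase genes, 23 had log2 fold changes below 0 and 6 (26.1%) were called lower, where 15.8% of all genes were called and 7.78% called lower, with *Prim1* at -0.52 (adjusted p by limma = 0.00548), *Cdc45* at -0.67 (adjusted p = 0.0124) and *Mcm7* at -0.52 (adjusted p = 0.0139). *Prim1* lies on chromosome 10, and less its 50 nearest genes its log2 fold change was -0.06 (adjusted p = 0.800). Of 20 G2 and M phase genes, 18 were below 0 and 4 (20%) were called lower, with *Bub1* at -0.61 (adjusted p = 0.00785), *Ccnb1* at -0.35 (adjusted p = 0.0333) and *Aurkb* at -0.66 (adjusted p = 0.0363); with the replicate block 9 were called, 8 lower and 1 higher. The summed S phase level was 2165 to 3140 CPM in *GFP*-NSPCs and 1855 to 3288 CPM in *Dbx2*-NSPCs, and the S phase score was 0.32 lower, in 8 of 8 numbers. Of the astrocyte markers 3 of 5 were called, *Gfap* higher and *Aldh1l1* and *Gja1* lower, and their summed level was 243 to 525 CPM and 121 to 260 CPM. The summed level of neuron markers, of which *Map2* was called lower, was 843 to 1298 CPM and 706 to 915 CPM. Of the oligodendrocyte lineage markers 0 of 3 tested were called, with *Mog* at 0 in every sample, and microglia markers summed to at most 1.63 CPM and those of pericytes and fibroblasts to at most 3.42 CPM. Of 3 tested ependymal markers 2 were higher, with sums of 10.3 to 25.8 and 21.9 to 44.9 CPM, and 0 of 2 endothelial markers were called, with sums of 0.67 to 9.81 and 0.30 to 9.01 CPM. The part of the cell cycle and of cell type markers in the results on chromatin genes was not tested.

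Of the 77 genes listed as known to be silenced by Polycomb or DNA methylation, 42 were at 0 in every sample and 11 passed the filter. Of 39 Hox genes, the classical Polycomb targets, 28 were at 0 in every sample and 6, all of the HoxA cluster, passed the filter. By limma over all samples 0 of the 6 were called, with 2 at an unadjusted p under 0.05. With the replicate block 4 were called, all higher: *Hoxa3* (adjusted p = 0.00760), *Hoxa4* (0.00365), *Hoxa5* (0.0184) and *Hoxa7* (0.0115). Of all genes 21.7% were called in that fit and 10.8% called higher.

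The HoxA levels differed between the sets of numbers. *Hoxa5* was at 0 to 0.65 CPM in *GFP*-NSPCs numbered 1 to 4, at or under the floor, and at 2.15 to 10.6 CPM in *Dbx2*-NSPCs of these numbers. In the samples numbered 5 to 8 it was at 59.1 ± 8.11 CPM and 73.0 ± 12.5 CPM (SD, n = 4 each), and the change differed between the sets (adjusted p by limma = 8.54e-05). *Hoxa7* had its difference in the other set. It was at or under the floor in all samples numbered 1 to 4, and in those numbered 5 to 8 *GFP*-NSPCs had 7.42 ± 2.18 CPM against 52.2 ± 7.58 CPM for *Dbx2*-NSPCs (difference between sets, adjusted p = 0.00273). *Hoxa3* was at 5.45 ± 1.79 and 11.8 ± 1.5 CPM in the samples numbered 5 to 8. *Hoxa4*, named after its values were seen, was at 0 in all *GFP*-NSPCs numbered 1 to 4 and at 0.98 to 2.25 CPM in *Dbx2*-NSPCs of these numbers. *Hoxa4* and *Hoxa5* each overlap *Hoxa3* on the same strand, and all 4 of these genes overlap *Hoxaas3* on the other strand, so reads cannot be fully assigned among them.

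**Figure D5:**
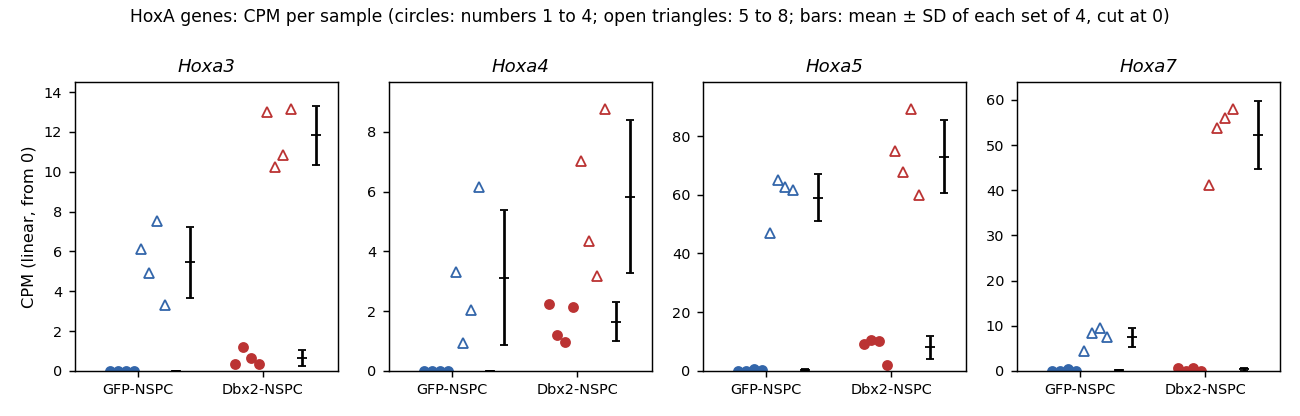
CPM of 4 HoxA genes per sample (y axis, linear, from 0), *GFP*-NSPCs in blue and *Dbx2*-NSPCs in red, circles for the samples numbered 1 to 4 and open triangles for 5 to 8, with bars for the mean ± SD of each set of 4. *Hoxa7* reaches 41.2 to 58.1 CPM in *Dbx2*-NSPCs numbered 5 to 8 and is near 0 in all samples numbered 1 to 4.

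Of 20 other canonical Polycomb targets, 4 passed the filter and 0 were called by limma, with 2, *Cdkn2b* and *Eomes*, at an unadjusted p under 0.05. *Cdkn2a*, the Ink4a/Arf locus that Bmi1 is known to repress, was at 66.6 to 164 CPM (median 91.1) in *GFP*-NSPCs and 70.0 to 142 CPM (median 111) in *Dbx2*-NSPCs, a log2 fold change of 0.08 (SE 0.179, adjusted p by limma = 0.822). Its means were 137 and 114 CPM in the samples numbered 1 to 4, a log2 fold change of -0.28 (adjusted p = 0.432). In those numbered 5 to 8 it was at 66.6 to 87.4 CPM against 102 to 112 CPM, a log2 fold change of 0.43 (adjusted p = 0.00637), and the difference between the sets did not pass (adjusted p = 0.0660). *Cdkn2b*, its neighbour, was near the floor and lower by 1.08 on the log2 scale (adjusted p = 0.125, and 0.0358 with the replicate block). *Tbx15* was at 0 in all *Dbx2*-NSPCs numbered 1 to 4, against 0 to 5.86 CPM in *GFP*-NSPCs, and at 7.22 to 8.44 CPM in those numbered 5 to 8, against 0.92 to 4.11 CPM. The change thus ran opposite ways and differed between the sets (adjusted p = 4.41e-04). Of 18 germline genes that DNA methylation silences, 10 were at 0 in every sample and only *Brdt* passed the filter, at 2.93 to 10.6 CPM (median 5.30) and 6.19 to 11.6 CPM (median 8.51), a log2 fold change of 0.59 (adjusted p by limma = 0.0755).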

How the data were processed

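RNA was measured by QuantSeq 3′ libraries from 100 ng of total RNA in 8 *GFP*-NSPC and 8 *Dbx2*-NSPC samples. The authors deposited CPM values per gene (reads scaled to the library total). Per the submitters' processing notes, FastQC 0.11.8, STAR 2.5.0a and edgeR 3.36 were used, and the counting tool and its strand setting are not given in the sources used here. Whole reads were recovered from the deposited CPM steps (at least 99.985% of values whole within 0.0051 CPM), giving 1803928 to 3258885 reads per *GFP*-NSPC sample and 2214008 to 3293285 per *Dbx2*-NSPC sample.

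Genes above 1 CPM in at least 4 samples (12533) were tested by limma 3.58.1 in R 4.3.3 on log2(CPM + 0.5), with a mean trend and Benjamini-Hochberg adjustment over all of them, so fold changes of low genes are understated. The study fitted its edgeR model with the cell line batch as a covariate. The labels do not give the line of a sample, so the main fit here had no covariate. The interaction with the set of numbers (1 to 4 or 5 to 8) was fitted in the same way. Alternatives were the quasi-likelihood test of edgeR 4.0.16 and, separately, DESeq2 1.42.0, each run on recovered whole reads, other scalings, pseudocounts, filters and samples, and a correction for the 50 nearest genes, which was chosen after the data were seen. The limma, edgeR and DESeq2 fits of the group alone were tested on simulated counts without an effect of set or pairing. The block, set, interaction and nearest-gene fits were not tested in this way. Same-numbered samples deviated together from their group means in 8 of 8 pairs (correlations of 0.152 to 0.303). These deviations hold the difference between the sets of numbers, so the correlations cannot show that single numbers pair the samples. The mean correlation with the other numbers of the same set was about as large (0.161 to 0.242), and the same number was the best partner in 4 of 8. The block and the same-numbered comparisons thus use a pairing that is not established. The fit with the number as a block is given where it changed a call. The labels do not say what a number stands for. Per the study's methods the RNA came from 4 separate experiments on each of 2 pairs of lines, so p-values measure the spread between cultures of few lines, not between animals.

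The members and the gene lists were chosen with earlier results of these data known. All 45 genes are named, with sample values for those called, those whose change differed between the sets and the catalytic genes. Of the other pathway genes the 8 called with the smallest p are named, and of the remaining lists at most 3 each, by p or, where 0 were called, by mean level. *Hoxa4*, *Eomes* and the cell type markers were named after their values were seen. Positions are from GENCODE M21 (GRCm38), and sequences before transcription starts are from RefSeq (GRCm38.p6) for 41 of the 45 genes, *Hdac1*, *Kdm6b*, *Pcgf1* and *Cbx2* being without an entry in the table used.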

Additional observations from a re-analysis of the deposited data

Results flagged for a closer look

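In 7 of the 90 group values of single genes 1 sample lay far from the other 7 of its group, by Dixon's criterion, which chance alone meets in about 1 in 20 groups. In each case it was the lowest sample. In *Dbx2*-NSPC replicate 4 these were *Rbbp7* at 59.6 CPM, *Cbx7* at 0.36 CPM, *Phc2* at 18.7 CPM and *Phc3* at 15.4 CPM. In *GFP*-NSPC replicate 1 they were *Suz12* at 118 CPM and *Jarid2* at 48.8 CPM, and in *GFP*-NSPC replicate 8 it was *Ezh1* at 1.64 CPM. Without *GFP*-NSPC replicate 1, 10 of the 45 genes were called, against 17.6% of all genes.

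The change between *Dbx2*-NSPCs and *GFP*-NSPCs differed between the samples numbered 5 to 8 and those numbered 1 to 4 for *Cbx6*, by -0.57 on the log2 scale (limma adjusted p = 0.00928), and for *Hdac2*, by -0.65 (limma adjusted p = 0.00153). It also differed for *Dbx2* itself, by 1.45 (adjusted p = 1.04e-04), and among the other named genes for *Hoxa5* by -3.11, *Hoxa7* by 2.36 and *Tbx15* by 4.42, sizes that depend on the pseudocount since samples of 1 set were at or near 0. The study used 2 pairs of lines, the labels do not say whether the sets of numbers are these pairs, and the cause was not tested.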

How the results depend on the processing

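Over all alternatives of the 45 log2 fold changes, 678 kept direction and side of the threshold, 44 passed newly, 14 no longer passed and 21 reversed. The number of the 45 genes called was 15 with the replicate block (14 lower, 1 higher), 15 with the set of numbers as a covariate (14 lower, 1 higher) and 15, all lower, with the replicate block and each gene less its 50 nearest genes, an alternative chosen after the data were seen. With edgeR and the set of numbers it was 12 (11 lower, 1 higher), against 23.4% of all genes (10.9% lower, 12.5% higher). The genes gained there were *Ehmt1*, *Kdm6b*, *Rnf2* and *Kmt2a*. The count held 2 higher and 4 lower genes in the samples numbered 1 to 4 alone, and 1 higher in those numbered 5 to 8. Without *GFP*-NSPC replicate 1 it was 10. The count of genes whose change differed between the sets was 1 less the 50 nearest genes.

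Of the other pathway genes, 7 were called with TMM scaling, with median-of-ratios scaling and with no mean trend (6 lower in each), and 6 with edgeR or no filter (5 lower in each). The count was 17 with the replicate block (3 higher), 17 with block and nearest genes (3 higher), 17 in the samples numbered 5 to 8 (6 higher) and 18 with the set of numbers (3 higher). Higher genes numbered 2 with DESeq2, 4 with edgeR and the set of numbers, and 2 in the samples numbered 1 to 4, where 6 were lower. The log2 fold change of *Dbx2* was 0.54 in the samples numbered 1 to 4 (limma adjusted p = 0.0891).

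None of the reversed values belonged to a gene called over all samples. In the samples numbered 1 to 4 they were -0.0761 (*Pcgf2*), -0.45 (*Cbx7*), 0.0230 (*Phc1*), -0.0013 (*Cbx5*) and 0.0795 (*Hdac1*). In those numbered 5 to 8 they were -0.21 (*Cbx6*), 0.24 (*Cbx8*), 0.0825 (*Phc2*), 0.0919 (*Phc3*), -0.21 (*Kdm2b*) and -0.0734 (*Dnmt3a*). Without *GFP*-NSPC replicate 1 they were -0.0481 (*Kdm2b*) and -0.0197 (*Dnmt3a*). Less the 50 nearest genes, with and without the block, they were 0.0148 (*Eed*), -0.17 (*Cbx2*), -0.0643 (*Kdm2b*) and -0.11 (*Dnmt3a*). The cause was not tested. Depth limits *Pcgf1*, *Cbx7* and *Dnmt3b*, which lay near the floor of 3 reads.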
